A study of Mus musculus with 6 samples.

Results

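The genes of MHC class II antigen presentation were followed through liver endothelial cells (liver ECs) of young and aged mice. The members were named by symbol and not picked by a threshold, namely H2-Aa, H2-Ab1, H2-Eb1 as well as H2-Eb2 (classical class II chains), the invariant chain gene Cd74, the peptide-loading genes H2-DMa, H2-DMb1, H2-DMb2 and H2-Oa, and the class II transactivator Ciita. They are 10 of the 24421 gene symbols in the count table, and all 10 are among the 14612 symbols that passed the filter on low counts. H2-Eb2, H2-Oa and H2-DMb2 passed it through aged samples alone, since none of the 3 reached the minimum of 0.5 CPM (counts scaled by the total of the library) in a young sample. Livers of wild-type (WT) C57BL/6J mice were digested and cells with the endothelial surface protein CD31 and without the leukocyte surface protein CD45 were collected by flow cytometry. RNA of 50000 cells per mouse was sequenced as single-end reads of 75 bases. The young group consisted of 3 mice aged 10 weeks, and the aged group of 1 mouse each of 127, 131 and 136 weeks. Per the study's methods the mice were female, and animals with grossly visible tumors or an enlarged liver or spleen were not used. The aged group thus stands for survivors without such visible disease, and the paper states that pathology was not assessed. No treatment, transgene or deletion was involved.

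MHC class II molecules are heterodimers of an alpha and a beta chain that show peptides from endocytosed proteins to CD4+ T cells. The invariant chain fills the groove of a new dimer until it reaches the endosome, where H2-DM exchanges the remaining fragment for a peptide and H2-DO restrains H2-DM. Professional antigen-presenting cells, such as B cells, dendritic cells and macrophages, carry class II constitutively, and liver sinusoidal ECs are known to present antigen as well. Transcription of the whole family depends on CIITA, a coactivator without DNA binding of its own that docks on RFX, CREB and NF-Y proteins at the X and Y boxes of class II promoters. Interferon-gamma induces Ciita in non-professional cells, with IRF1 among the factors involved.

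The promoters are shown first because class II promoters are known for these boxes. Of the members, 7 were found in the RefSeq promoter table (GRCm38.p6, 250 bases before to 50 bases after each start), namely H2-Aa, H2-Eb1, H2-Eb2, H2-DMa, H2-DMb1, H2-DMb2 and H2-Oa. H2-Ab1, Cd74 and Ciita are named only. An X box core was searched as AACNGATG and a Y box core as ATTGG, both on either strand. The windows of 60 bases below lie before the starts of the RefSeq transcripts in that table, outside annotated exons, and were placed on chromosome 17 of mm9, the build of the deposited data, by exact match. For H2-DMb2 that start lies inside the gene span of the GENCODE annotation given below, which begins farther upstream. Capitals mark the matched letters, and each window is written 5′ to 3′ on the strand of its gene.
H2-Eb1, chr17:34442706-34442765, plus strand: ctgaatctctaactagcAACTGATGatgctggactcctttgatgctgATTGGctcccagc
H2-Eb2, chr17:34462473-34462532, plus strand: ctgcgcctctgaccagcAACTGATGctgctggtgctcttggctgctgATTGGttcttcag
H2-DMb2, chr17:34282057-34282116, plus strand: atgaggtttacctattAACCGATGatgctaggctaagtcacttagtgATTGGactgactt
H2-Aa, chr17:34424804-34424863, minus strand: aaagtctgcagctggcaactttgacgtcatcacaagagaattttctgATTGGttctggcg
The 5 letters of the Y box core stood in the promoters of all 7 members in the table, and in 37.4% of all 32851 promoters. The X box core stood in those of H2-Eb1, H2-Eb2, H2-DMb1 and H2-DMb2 and in 2.32% of all. Both cores on the same strand, with the Y box 5 to 40 bases behind the X box, were found in these 4 members and in 16 of all 32851 promoters (0.0487%). The gap was 22 bases in H2-Eb1 and H2-Eb2 and 23 bases in H2-DMb2. H2-Eb1 and H2-Eb2 carry the same letters at 42 of the 60 positions shown, and their transcripts differed widely in level, as given below. Such a match describes letters in a window and is not a measured binding site.

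The class II H2 genes among the members lie within the MHC on chromosome 17, between H2-Oa at 34229285 and the end of H2-Eb2 at 34477174 in mm9. Ciita lies on chromosome 16 (10480237 to 10527657). H2-Ab1 (34400154 to 34406363, plus strand) and H2-Aa (34406276 to 34424772, minus strand) meet tail to tail and share 17 exonic bases, and whether reads were counted by strand is not given in the sources used here. H2-DMb1 (34290017 to 34297168) and H2-DMb2 (34280252 to 34288498) are close copies, and 19.2% and 17.2% of their 75-base transcript stretches also occur in another gene, each in the other for the most part, so the split of reads between them is uncertain. No such shared stretch was found for the other 8 members.

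Total counts ran from 23001556 to 31651817 per sample. No replicate pair came near to agreeing within sampling noise (chi-square per degree of freedom of at least 21.3). Reads on Lars2 and Rn45s, symbols that collect ribosomal RNA, made up 1.29% of the counts in young 3 and 0.960% in the 127-week sample against 4.68% to 5.53% in the other 4. The sort for ECs left its mark, with Pecam1, the gene of CD31, at a CPM of 1323 to 1606 in all samples. Ptprc, the gene of CD45, had 42, 26 and 54 counts in the young samples and 220, 33 and 631 counts at 127, 131 and 136 weeks. Ptprc was thus above the young samples in CPM at 127 and 136 weeks and within their range at 131 weeks, and results are given for each mouse for that reason. In such bulk RNA, more cells of a type and more RNA per cell cannot be told apart.

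Class II and Ciita transcripts were higher in aged than in young liver ECs by group, with log2 fold changes of 1.87 (Ciita) to 6.50 (H2-Eb2). The 7 members whose ages did not overlap had 2.11 to 2.95, and H2-Eb2 had 0 counts in the young samples. The 10 members together took 171, 129 and 240 CPM in young 1, 2 and 3, and 1222, 454 and 2075 CPM at 127, 131 and 136 weeks. For 7 members, H2-Aa, H2-Ab1, H2-Eb1, H2-DMa, H2-DMb1, H2-DMb2 and Cd74, every aged sample lay above every young sample, which held for 11.8% of all genes tested. By edgeR's quasi-likelihood test, 9 of 10 (all but H2-Oa) had a log2 fold change above 1 with an unadjusted p below 0.05, against 5.43% of all genes. H2-Eb2 and H2-DMb2 are among the 9, H2-DMb2 also among the 7 without overlap, and both were tested through their aged values. With a minimum of 1 CPM in at least 3 samples, which leaves out these 2 and H2-Oa, all 7 members tested had such values, against 4.76% of 12315 genes. After Benjamini-Hochberg adjustment over all genes, 0 of 10 members and 0 of 14612 genes (0.0%) passed 0.05 with edgeR, the members' adjusted p running from 0.193 to 0.532. DESeq2's Wald test called 7 of 10 members, the same 7 that did not overlap, where it called 2.77% of the genes with an adjusted p. DESeq2 gave no adjusted p for H2-Eb2. The median log2 fold change of the members was 2.60, and 2.54 without H2-Eb2, beside 0.0098 over all genes tested.

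**Figure D1:**
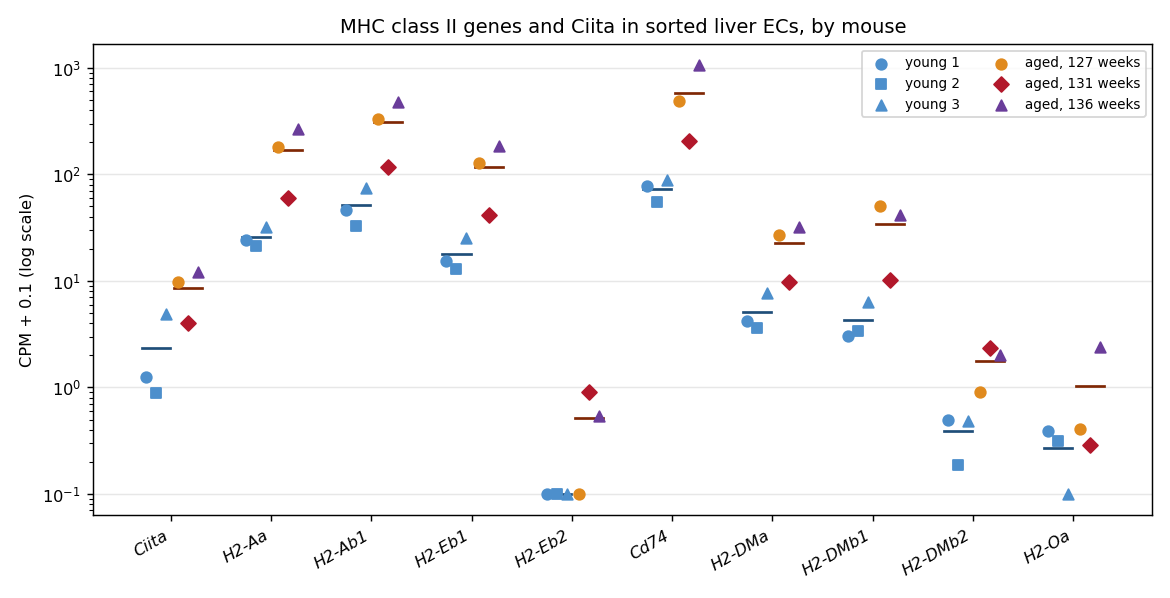
CPM of each member in each mouse, with 0.1 added for the log axis, in 3 young mice (blue) and in the mice of 127 (orange), 131 (red) and 136 weeks (purple). Horizontal lines are group means (n = 3 each). The 131-week sample is the lowest of the aged samples for H2-Aa, H2-Ab1, H2-Eb1, Cd74, H2-DMa, H2-DMb1, H2-Oa and Ciita, and the highest for H2-DMb2 and H2-Eb2.

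Ciita, the master regulator, overlapped between the ages and varied widely among young mice. Its CPM was 1.16, 0.783 and 4.77 in young 1, 2 and 3, and 9.64, 3.95 and 12.1 at 127, 131 and 136 weeks. Young 3 stood 4.92-fold over the mean of young 1 and 2 and lay above the 131-week sample. The young mean was 2.24 ± 2.202 and the aged mean 8.57 ± 4.19 CPM (SD, n = 3 each), and the log2 fold change in edgeR was 1.87 (standard error 0.72, adjusted p = 0.364). Without young 3 the log2 fold change was 3.05 in place of 1.87. Young 3 and the 127-week sample also share the low ribosomal RNA fraction. Within that pair the log2 difference of Ciita was 1.01, and among the other 4 samples 2.84.

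The classical chains H2-Aa, H2-Ab1 and H2-Eb1 moved almost as a unit. H2-Aa, the alpha chain of I-A, stood at 24.3, 21.0 and 32.2 CPM in young 1, 2 and 3 and at 182, 60.4 and 265 at 127, 131 and 136 weeks. H2-Ab1, its beta chain, was at 45.9, 32.8 and 74.9 CPM in young 1, 2 and 3, and at 334, 118 and 480 CPM in the aged samples in the same order. H2-Eb1, the beta chain of I-E, was at 15.3, 12.8 and 25.4 CPM in young and 127, 41.8 and 186 CPM in aged ECs. For each of the 3 genes the 136-week sample was highest, the 131-week sample was the lowest aged value, and the lowest aged value was 1.88-, 1.57- and 1.64-fold the highest young value for H2-Aa, H2-Ab1 and H2-Eb1. Their log2 fold changes were 2.65 (standard error 0.50), 2.54 (0.52) and 2.67 (0.53), with adjusted p of 0.193, 0.203 and 0.193 in edgeR and 5.15e-06, 3.56e-05 and 2.00e-05 in DESeq2. Within the library pair low in ribosomal RNA the log2 difference was 2.50, 2.16 and 2.32, and among the other samples 2.48, 2.61 and 2.65.

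H2-Eb2, a second E beta gene beside H2-Eb1, was barely transcribed. Young 1, 2 and 3 and the 127-week library held 0 counts of it, against 21 counts in the 131-week and 11 counts in the 136-week sample. Against a floor of 3 counts over the young group, the pooled aged level of 0.413 CPM was at least 11.3-fold higher, a bound that covers counting error only and rests in large part on the 131-week sample. Without that sample the bound is 5.89-fold. The edgeR adjusted p was 0.368. The gene of the E alpha chain, listed as the pseudogene H2-Ea-ps, had 0 counts in all 6 libraries. C57BL/6 mice are known to lack a functional E alpha gene, so that their H2-Eb1 transcript has no partner chain for surface I-E.

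Cd74, whose product chaperones every class II dimer, was the most abundant member. Its CPM was 77.0, 54.7 and 88.2 in the young samples and 490, 208 and 1054 at 127, 131 and 136 weeks. The aged samples lay well clear of the young ones, the lowest of them 2.35-fold above the highest young sample. The log2 fold change was 2.95 (standard error 0.57, edgeR adjusted p = 0.193, DESeq2 adjusted p = 2.49e-06), and 2.13 without the 136-week sample. Within the library pair low in ribosomal RNA the log2 difference of Cd74 was 2.47, and among the other samples 2.85. On the FPKM scale, which is per length, Cd74 had a young mean of 76.0 ± 18.1 and an aged mean of 578 ± 442 (SD, n = 3 each). In the FPKM of the 136-week sample it stood above 99.7% of the genes tested, and in the young samples above 88.8% to 93.5%.

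The H2-DM genes, which encode the alpha and beta chains of the peptide editor, were lower in level than the chains they serve. H2-DMa had a CPM of 4.09, 3.48 and 7.58 in young 1, 2 and 3 and 27.1, 9.57 and 31.7 at 127, 131 and 136 weeks. It had the narrowest gap of the 7 members without overlap, since the 131-week sample was only 1.26-fold above young 3. Its log2 fold change was 2.11 (standard error 0.48, edgeR adjusted p = 0.235). H2-DMb1 had a CPM of 2.97, 3.26 and 6.29 in young and of 50.2, 10.1 and 41.2 in aged ECs. It was the sole member of the abundant set that was highest at 127 weeks, 12.0-fold over the young mean, and its log2 fold change was 2.93 (standard error 0.59, edgeR adjusted p = 0.193). H2-DMb2, its close copy, went another way among the aged mice, at 0.398, 0.0870 and 0.379 CPM in young and 0.803, 2.24 and 1.91 CPM in aged ECs. These are 2 to 12 counts in young and 21, 59 and 48 counts at 127, 131 and 136 weeks. The log2 fold change was 2.46 (standard error 0.75, edgeR adjusted p = 0.291). Within the pair low in ribosomal RNA the log2 difference was 1.84 for H2-DMa, 2.99 for H2-DMb1 and 1.06 for H2-DMb2, and among the other samples 2.203, 2.70 and 3.30.

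H2-Oa, the alpha chain of the H2-DM inhibitor H2-DO, overlapped between the ages. It had 8, 5 and 0 counts in young 1, 2 and 3 and 8, 5 and 57 counts at 127, 131 and 136 weeks. Only the 136-week sample stood apart, at 2.27 CPM, and the log2 fold change of 2.41 (standard error 1.38, edgeR adjusted p = 0.532) rests on it. The gene dropped below the low-count filter when that sample was left out. H2-Ob, the beta chain of H2-DO and not itself a member, had a CPM of 1.92, 1.52 and 1.26 in young and 5.58, 4.63 and 3.91 in aged ECs, without overlap, and a log2 fold change of 1.51 (standard error 0.34, edgeR adjusted p = 0.232). At 131 weeks H2-Ob was above all young samples and H2-Oa was not.

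Levels can be compared between members per length. In FPKM the mean of young ECs was 76.0 for Cd74, 51.4 for H2-Ab1, 29.3 for H2-Aa and 12.0 for H2-Eb1, followed by 3.84 for H2-DMb1 and 3.44 for H2-DMa. H2-DMb2 at 0.453, Ciita at 0.400 and H2-Oa at 0.228 came after them, and H2-Eb2 was listed at 0. Neighbours in the lower part did not differ beyond their spread, with an SD of 1.68 for H2-DMb1 and 1.47 for H2-DMa, and of 0.266, 0.386 and 0.215 for H2-DMb2, Ciita and H2-Oa. In aged ECs the means were 578 for Cd74, 297 for H2-Ab1, 182 for H2-Aa, 76.1 for H2-Eb1, 29.2 for H2-DMb1, 14.7 for H2-DMa, 2.50 for H2-DMb2, 1.53 for Ciita, 1.36 for H2-Oa and 0.127 for H2-Eb2. The group means thus stood in the same order at both ages, while in single mice neighbours among the lower members changed places, as H2-Oa at 3.29 lay above H2-DMb2 at 2.83 and Ciita at 2.29 in the 136-week sample.

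Within a mouse the ratios between the chains varied far less than their levels. The ratio of H2-Eb1 to H2-Ab1 FPKM stayed between 0.225 and 0.261 over all 6 samples, and that of H2-Ab1 to H2-Aa between 1.39 and 2.06. Cd74 was 2.35 to 3.63 times H2-Aa. Some other ratios did not overlap between the ages. H2-DMb1 to H2-DMa stood at 0.978, 1.26 and 1.13 in young 1, 2 and 3 and at 2.49, 1.42 and 1.75 at 127, 131 and 136 weeks. H2-DMa to H2-Aa was at 0.101, 0.10 and 0.141 in young and 0.0897, 0.0956 and 0.0725 in aged samples. It was lower in each aged sample, but at 131 weeks only narrowly below young 2. A two-sided exact permutation test gave both a p of 0.1 (adjusted p = 0.3 over 9 ratios), below which this design of 3 against 3 cannot go. H2-Aa to Pecam1 reached the same p of 0.1 in the exact permutation test, with 0.0562 to 0.0722 in young and 0.158 to 0.581 in aged ECs. Any ratio without overlap gets this p at 3 against 3. The share of all gene pairs whose ratio does not overlap was not computed. Reads shared with H2-DMb2 enter the H2-DMb1 value, and their part in the ratio of H2-DMb1 to H2-DMa was not tested. Over the 6 samples, the log2(CPM + 1) values of the 6 most abundant members (H2-Aa, H2-Ab1, H2-Eb1, H2-DMa, H2-DMb1 and Cd74) had pairwise Pearson r of 0.951 to 0.998 (15 pairs), a description over 2 age groups that share libraries and depth.

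**Figure D2:**
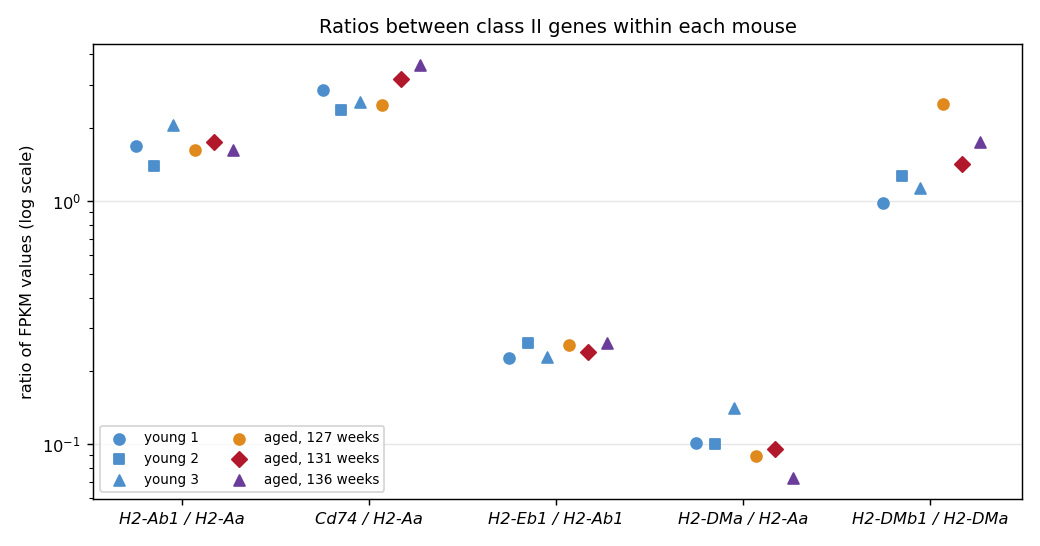
Ratio of FPKM values between 2 class II genes within each mouse, on a log axis, for 3 young (blue) and 3 aged mice (orange, red and purple for 127, 131 and 136 weeks). H2-Eb1 to H2-Ab1 lies within 0.225 to 0.261 in all mice, and H2-DMb1 to H2-DMa is higher in each aged than in each young mouse.

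Class II counts were next set against Ptprc in each sample, since CD45 is the protein the sort selects against. Counts of H2-Aa per count of Ptprc were 16.02, 18.6 and 18.9 in young 1, 2 and 3, and 21.7, 48.2 and 10.5 at 127, 131 and 136 weeks. For Cd74 the ratios were 50.7, 48.4 and 51.7 in young ECs and 58.3, 166 and 41.9 in aged ECs. The 131-week value had an exact 95% interval (Clopper-Pearson, counting error only) of 118 to 241, clear of the young intervals, which together spanned 32.9 to 74.4. H2-Ab1 gave 30.2, 29.0 and 43.9 in young and 39.7, 93.9 and 19.1 in aged samples, and H2-Eb1 gave 10.1, 11.3 and 14.9 in young and 15.2, 33.3 and 7.38 in aged samples. The aged mice thus lay on both sides of the young mice for all 4 genes.

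The other members are given in the same way. H2-DMa per Ptprc count was 2.69, 3.08 and 4.44 in young and 3.23, 7.64 and 1.26 at 127, 131 and 136 weeks. H2-DMb1 was at 1.95, 2.88 and 3.69 in young and at 5.96, 8.03 and 1.64 in aged samples, and was also above the young range at 127 weeks. H2-DMb2 was at 0.262, 0.0769 and 0.222 in young and 0.0955, 1.79 and 0.0761 in aged samples. Ciita was at 0.762, 0.692 and 2.80 in young and 1.15, 3.15 and 0.482 in aged samples, and at 131 weeks its interval of 2.11 to 4.81 overlapped that of young 3, 2.04 to 3.89. H2-Oa was at 0.190, 0.192 and 0 in young and 0.0364, 0.152 and 0.0903 in aged samples. H2-Eb2 had a ratio of 0 in 4 samples, 0.636 at 131 weeks and 0.0174 at 136 weeks.

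For 0 of 10 members did the ratio separate the ages. It did so, in either direction, for 8.89% of all genes tested, so a count of 0 among 10 is near that share. Two-sided exact permutation tests gave p between 0.5 and 1.0 for the members and an adjusted p of 1 over the 10. The 131-week sample had the highest ratio of the 6 samples for 9 of 10 members (all but H2-Oa), and 29.1% of all genes did the same. H2-Eb2 is among the 9 and passed the low-count filter through that sample alone. The 136-week sample was below all young samples for 8 of 10 members, and so it was for 94.4% of all genes tested in that sample, which has the highest Ptprc. The denominator is small, at 33 Ptprc counts in the 131-week sample and 26 in young 2. Without the 136-week sample 4 members, H2-Aa, H2-Eb1, H2-DMb1 and Cd74, had ratios above all young values, where 9.47% of all genes did not overlap. Without young 3 the ratio of H2-Oa was lower in every aged sample, where 18.0% of all genes did not overlap. With the summed counts of 9 pan-leukocyte markers in place of Ptprc, 7 members did not overlap, against 14.9% of all genes, but Lcp1 makes up most of that sum in 5 of the 6 samples, at 77.0 to 83.7 CPM of 98.8 to 103 in young ECs. Without Lcp1, an alternative chosen after seeing the data, 1 member, Cd74, did not overlap, against 4.93% of all genes. Cd74 was also the single member without overlap in the ratio of FPKM values, against 12.3% of all genes.

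**Figure D3:**
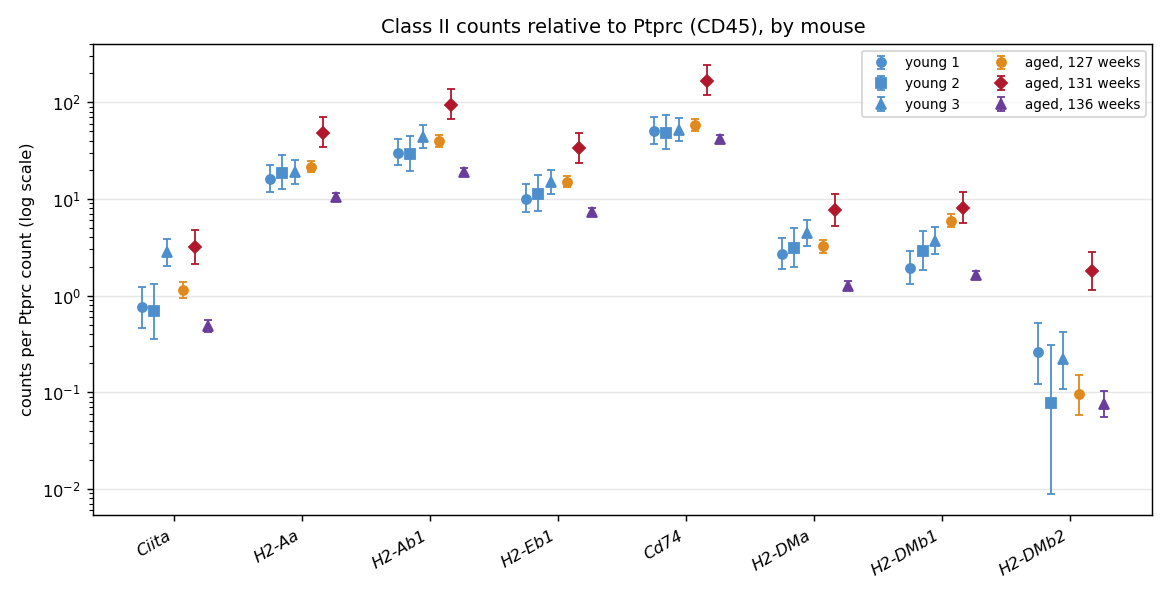
Counts of each member per Ptprc count in each mouse, on a log axis, with exact 95% intervals for counting error, without H2-Eb2 and H2-Oa, which have samples at 0. For each of the 8 genes the 131-week mouse (red) is highest and the 136-week mouse (purple) is lowest of the 6 mice.

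The mouse of 131 weeks carried class II transcripts above the young range with Ptprc within it. In that sample 8 of 10 members, all but H2-Oa and Ciita, were above every young sample, as were 25.8% of all genes tested. H2-Eb2 passed the low-count filter through this sample alone, so its place among the 8 was fixed by the filter. H2-DMb2, also among the 8, passed through aged samples alone. Over the young mean, Cd74 was 2.83-fold, H2-DMb1 2.41-fold, H2-Aa and H2-Eb1 2.34-fold, H2-Ab1 2.30-fold, H2-DMa 1.89-fold and Ciita 1.76-fold in this mouse, while Ptprc was 0.863-fold. H2-DMb2 was 7.78-fold. In the 127-week mouse Cd74 was 6.69-fold and Ptprc 5.79-fold, and in the 136-week mouse Cd74 was 14.4-fold and Ptprc 17.3-fold. Young 3 was itself 1.34- to 2.02-fold over the mean of young 1 and 2 for the 7 members without overlap. With the 131-week sample alone against the 3 young samples, a fit chosen after seeing the data that assumes the lone sample varies like the young ones, the log2 fold change was 1.51 for Cd74, 1.23 for H2-Aa and 0.83 for Ciita. In that fit Cd74, H2-Aa, H2-Ab1, H2-Eb1, H2-DMb1, H2-DMb2 and H2-Eb2 had a log2 fold change above 1 with an unadjusted p below 0.05, as did 2.06% of the 14008 genes tested. The last 2 of them passed the filter through the 131-week sample, H2-Oa was not tested, and 0 members passed the adjusted threshold in edgeR. With log2 CPM of Ptprc as a second term over all 6 samples, the log2 fold changes were 1.51 for Cd74, 1.34 for H2-Aa, 1.29 for H2-Ab1, 1.33 for H2-Eb1, 1.04 for H2-DMa, 1.60 for H2-DMb1, 0.85 for Ciita, 2.58 for H2-DMb2 and 0.0043 for H2-Oa. H2-Eb2, with 0 counts in the young samples, had 6.97 in this fit. Ptprc stood at 8.41, 1.25 and 25.2 CPM at 127, 131 and 136 weeks, against 1.13 to 1.71 CPM in young samples. Separating age from Ptprc in this fit thus rests largely on the 131-week sample. Of the 10 members, 7 had such an unadjusted p with a log2 fold change above 1, against 1.9% of all genes. Ciita, H2-Oa and H2-Eb2 did not, and 0 members passed the adjusted threshold in edgeR. H2-DMb2 is among the 7 and passed the low-count filter through aged samples alone.

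Markers of the cells that carry class II constitutively were read in the same libraries, and their part in the class II values was not tested beyond the ratios and fits above. Of 9 pan-leukocyte markers, 9 had a positive log2 fold change, with a median of 2.15. In edgeR 6 of them had an unadjusted p below 0.05 with a log2 fold change above 1. Of all genes tested 5.43% did so, the share to set beside the counts of higher genes in the lists below. Coro1a was the single marker above all young samples in every aged one, as were 11.8% of all genes tested. It stood at 3.35 to 5.39 CPM in young and 13.2, 5.58 and 33.5 CPM at 127, 131 and 136 weeks. The 9 markers summed to 98.8 to 103 CPM in young ECs and 127, 98.3 and 352 CPM at 127, 131 and 136 weeks. Of 7 monocyte and macrophage markers 3 passed that unadjusted threshold, and the sum was 24.998 to 55.2 CPM in young and 159, 25.9 and 417 CPM in aged samples, mostly from Lyz2, the lysozyme of myeloid cells. The 6 Kupffer cell markers gave 0 such genes and a sum of 22.9 to 39.4 CPM in young and 73.3, 6.57 and 88.6 CPM in aged samples. At 131 weeks the Kupffer cell gene Clec4f was at 2.13 CPM, below the young range of 7.56 to 19.9 CPM, and Timd4 was at 0 counts. Of the macrophage groups, therefore, the Kupffer cell sum at 131 weeks was under and the monocyte sum within the young range.

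B cells and dendritic cells are the other main carriers of class II. The B cell markers summed to 4.52 to 5.57 CPM in young and 2.87, 2.39 and 9.89 CPM in aged samples, with 0 of 6 tested markers higher at the unadjusted threshold and Fcrla lower. Fcrla makes up most of the young sum, and 5 of the 6 tested markers had a positive log2 fold change. Without Fcrla, a sum added after seeing the data, the markers stood at 1.13 to 1.74 CPM in young and 2.26, 1.29 and 8.57 CPM at 127, 131 and 136 weeks, above the young range at 127 and 136 weeks and within it at 131 weeks. Ms4a1 had 16, 0 and 51 counts at 127, 131 and 136 weeks, and Pax5 had 0 counts in all 6 samples. The 7 dendritic cell markers summed to 102 to 137 CPM in young and 135, 111 and 82.0 CPM in aged samples, 0 of them at the unadjusted threshold. That sum is mostly Zbtb46, a factor that ECs are known to express as well. Itgax, the gene of CD11c, had 4, 0 and 32 counts in young 1, 2 and 3 and 9, 20 and 108 counts at 127, 131 and 136 weeks, and so lay within the young range at 127 and 131 weeks. T and NK cell markers, of cells that carry little class II in mice, summed to 0.158 to 0.832 CPM in young and 5.47, 0.380 and 21.7 CPM in aged samples, with 5 of 6 tested markers at the unadjusted threshold. Hepatocyte markers (summed 71.0 to 124 CPM in young and 52.7 to 83.8 CPM in aged ECs) and stellate and mural cell markers (119 to 354 CPM and 204 to 648 CPM) overlapped between the ages, with 0 genes of either list higher at the unadjusted threshold.

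Of 9 endothelial markers, 3 had a positive and 6 a negative log2 fold change, and 2 (Stab2 and Clec4g) were lower at the unadjusted threshold. Over all genes tested, 174 of 14612 were lower at that threshold, and the share lower without overlap is not given here. Their sum was 14330 to 16778 CPM in young and 10031, 11380 and 8035 CPM at 127, 131 and 136 weeks, without overlap. Kdr, Clec4g and Stab2 carry that difference, and the other 6 markers, a sum also added after seeing the data, came to 4708 to 5808 CPM in young and 5704, 4416 and 5309 CPM in aged samples, with overlap. Kdr, the main VEGF receptor, had a log2 fold change of -0.65, and Stab2 and Clec4g had -1.70 and -1.46, all 3 without overlap and with adjusted p of 0.368, 0.265 and 0.308 in edgeR. Pecam1, in contrast, had a log2 fold change of 0.015 (adjusted p = 0.985 in edgeR), and Emcn and Lyve1 had 0.30 and 0.58. Lyve1 stood at 380 to 671 CPM in young and 734, 218 and 1479 CPM at 127, 131 and 136 weeks.

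**Figure D4:**
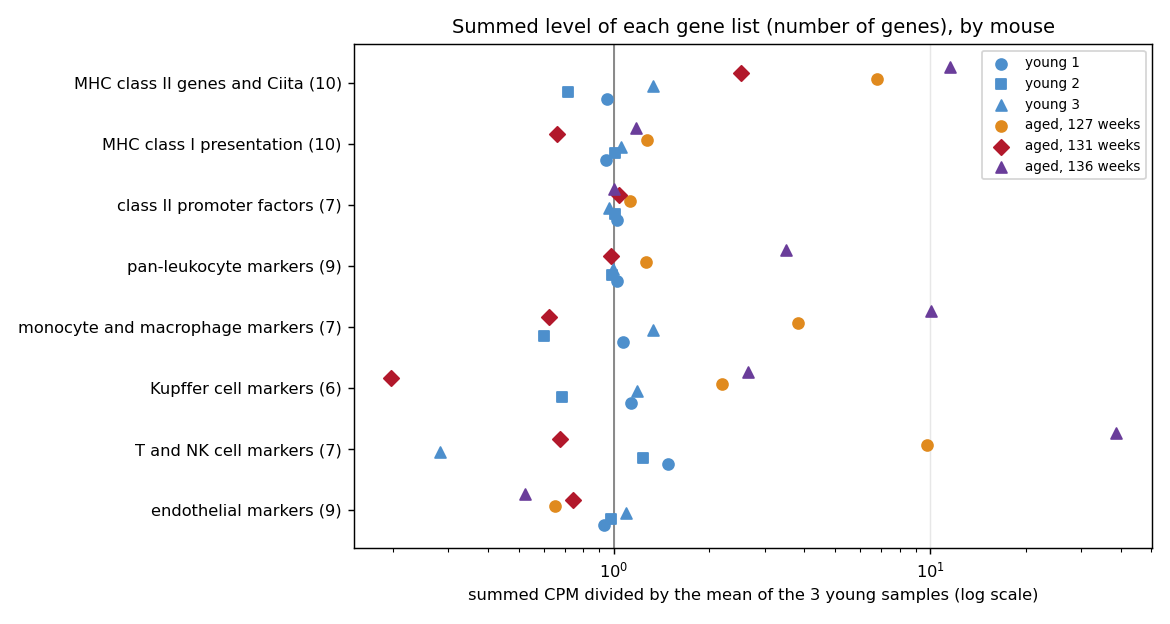
Summed CPM of each gene list in each mouse, divided by the mean of the 3 young samples, on a log axis. At 131 weeks (red) the class II members lie above all young mice, while the leukocyte, monocyte, Kupffer cell and T and NK cell lists lie within or below the young values.

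The factors that bind class II promoters are RFX, CREB and NF-Y subunits. Of 7 such genes, 0 passed the unadjusted threshold in either direction, with a median log2 fold change of 0.10. Summed, they stood at 170 to 180 CPM in young and 198, 183 and 177 CPM in aged samples. The most abundant of them, Creb1, Nfyc, Nfyb and Rfxap, had log2 fold changes of -0.11, -0.014, 0.20 and 0.10. Rfx5, the DNA-binding subunit of RFX, was at 14.8 to 15.3 CPM in young ECs and at 22.2, 17.5 and 15.4 CPM in aged ECs (log2 fold change 0.22, edgeR adjusted p = 0.664). Rfx5 and Nfyb were the factors of this list without overlap between the ages, both higher in aged ECs. Of all genes tested, 11.8% were higher without overlap.

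Of 8 genes that lie upstream of Ciita in the interferon-gamma response, 1 was higher at the unadjusted threshold and 0 at the adjusted one. That gene, Irf1, was at 582, 606 and 1008 CPM in young 1, 2 and 3 and at 2093, 1412 and 2882 CPM at 127, 131 and 136 weeks. The ages did not overlap, young 3 was the highest young sample and the 131-week sample the lowest aged one, the order seen in most class II members. Its log2 fold change was 1.49 (standard error 0.33, edgeR adjusted p = 0.232). Jak1, the kinase of the interferon-gamma receptor alpha chain, was lower in each aged sample (log2 fold change -0.61, adjusted p = 0.350), and Ifngr1 overlapped (log2 fold change 0.040).

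The proteases and other enzymes that prepare peptides and trim the invariant chain held no common direction. Of 7 genes, 3 had a positive and 4 a negative log2 fold change, with a median of -0.15. Ctsb and Ctsd, general lysosomal cathepsins, had log2 fold changes of -0.17 and 0.094, and Lgmn had -0.52. Ctsd was slightly higher without overlap, at 1604 to 1766 CPM in young and 1839, 1805 and 1938 CPM at 127, 131 and 136 weeks. Ctsl, a cathepsin L gene abundant in ECs, was at 1202, 1346 and 1799 CPM in young and at 748, 995 and 635 CPM in aged samples, lower without overlap (log2 fold change -0.92, adjusted p = 0.256). Ctss, which cleaves the invariant chain in antigen-presenting cells, was chosen for mention after its values were seen. It was the single gene of this list at the unadjusted threshold (log2 fold change 1.67, adjusted p = 0.368), with 8.0 to 12.0 CPM in young and 23.7, 8.50 and 64.4 CPM in aged samples, so that the 131-week value was within the young range. Cd83, which holds class II at the cell surface, was at 5.35 to 6.17 CPM in young and 14.1, 5.31 and 24.4 CPM in aged samples (log2 fold change 1.31, adjusted p = 0.359).

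MHC class I presentation shows cytosolic peptides to CD8+ T cells, and its genes were read beside class II in these libraries. Of 10 genes, 0 passed the unadjusted threshold and 0 separated the ages, with a median log2 fold change of 0.069. Among all genes tested 5.43% were higher at that threshold and 11.8% were higher without overlap. Counts of 0 among 10 are near those shares. B2m and H2-K1, the most abundant of them, had log2 fold changes of -0.13 and 0.076. The list summed to 8960 to 10016 CPM in young and 12136, 6306 and 11199 CPM at 127, 131 and 136 weeks. It was thus above the young range at 127 and 136 weeks, as was the class II sum. At 131 weeks it was below that range, whereas the class II sum of that mouse was above its own. The difference between the lists was not tested.

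The genes whose pattern over the 6 samples was most like the mean of the members were Erf, Azin1, Mid1ip1, Rnd1 and Ptbp1, with Pearson r of 0.993 to 0.999 on log2(CPM + 1) among 12448 genes with a mean CPM of at least 1. Rnd1 came nearest in size of change, at 75.9, 61.0 and 79.2 CPM in young and 390, 271 and 975 CPM in aged samples. Erf, an ETS-domain repressor, was at 9.04 to 10.4 CPM in young and 15.8, 13.97 and 20.3 CPM in aged samples. Of these 12448 genes, 470 had r above 0.9. Ptprc had r = 0.879 and was at rank 629 against the same mean. That mean covered all members, including H2-Eb2, H2-DMb2 and H2-Oa with their low counts. H2-Eb2 and H2-DMb2 were highest in the aged sample in which the other members had their lowest aged value. The nearest genes and the rank of Ptprc for the abundant members alone were not computed. Each r is a description over the 6 samples of both ages.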

How the data were processed

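The authors called bases with CASAVA 1.8.2, mapped reads to mm9 with TopHat2 2.1.0 and deposited whole-number read counts per gene symbol. The deposited FPKM values came from Cuffnorm 2.2.1, which scales between samples. The counting program, annotation and strand setting are not given in the sources used here. From the counts, CPM was computed on each sample's plain total. Genes with at least 0.5 CPM in at least 1 sample were tested with edgeR 4.0.16 (TMM, quasi-likelihood test, Benjamini-Hochberg over all genes, called at a log2 fold change above 1 and 0.05 for the adjusted p, R 4.3.3), and DESeq2 1.42.0 and limma 3.58.1 served as alternatives. Ratios to Ptprc were tested on the log2 scale with 0.5 counts added to both, by two-sided exact permutation. The members and lists were chosen with earlier results of these data known. Named genes are the members, up to 4 genes of each list by mean CPM, and the 5 nearest patterns. Where another gene of a list is named (Rfx5, Ctss, Pax5, Timd4, Emcn, Lyve1), it was chosen after its values were seen. Some genes are not reported here. March1 could not be matched, since 2 symbols of the table had been turned into the same date. The scripts were tested on simulated data. Replicates were labelled as separate samples, and the study's methods describe 3 independent samples per group. Each sample is read here as 1 mouse. Without molecular identifiers, reads need not be independent molecules, and intervals and floors cover counting error only. 3 counts correspond to 0.0948 to 0.130 CPM.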

Additional observations from a re-analysis of the deposited data

How the results depend on the processing

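Members called by the adjusted threshold numbered 0 with edgeR and 7 with DESeq2's Wald test, and 0 under all other alternatives run. Members whose ratio to Ptprc separated the ages numbered 0, but 1 with the ratio of deposited FPKM (Cd74), 7 with summed pan-leukocyte markers, 1 with these markers without Lcp1 and 0 to 4 when each mouse was left out in turn. Of 164 log2 fold changes of single members under an alternative, 157 kept their direction and side of the threshold and 7, all with DESeq2, passed it, and none changed sign. Leaving out each mouse in turn gave 7 to 8 members at the unadjusted threshold and 7 to 9 without overlap. H2-Eb2, H2-Oa and H2-DMb2 gave no value under the filter of at least 1 CPM in 3 samples, H2-Eb2 none without the 131-week sample, and H2-Oa none without the 136-week sample or with the 131-week sample alone. The added fit with the 131-week sample alone and the sum without Lcp1 were chosen after seeing the data. No paired analysis was possible because the aged samples carry ages and no replicate numbers in the labels, so the ages share none. Low counts limit H2-Eb2, H2-Oa and H2-DMb2 and the Ptprc denominator.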
